A study of Mus musculus with 7 samples.

Results

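The BCL2 family sets whether a cell keeps or permeabilises its mitochondrial outer membrane, and 10 of its genes were followed here among the 28786 genes of the count table. They were taken by name: 4 pro-survival genes (Bcl2, Bcl2l1, Mcl1 and Bcl2a1b), 2 pore-forming effectors (Bax and Bak1) and 4 BH3-only genes (Bcl2l11, Bbc3, Pmaip1 and Bid), the last 6 together being the pro-death side. All 10 had a row and all 10 passed the filter on low counts, which left 14226 genes for the test. As background, pro-survival proteins hold BAX, BAK and BH3-only proteins in check, BH3-only proteins are induced or activated by stress, and activated BAX or BAK opens the membrane so that cytochrome c is released and caspases are switched on. In blood-forming stem cells MCL1 is known to be required for survival, and much of the family's control is at the level of protein turnover, cleavage and binding, which transcript counts do not measure.

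The libraries were made from haematopoietic stem cells (HSCs), which give rise to every blood lineage, sorted from mouse bone marrow by flow cytometry. The study asked how a tumour elsewhere in the body moves HSCs towards the myeloid lineages. The MC38 group (n = 4 libraries) came from C57BL/6J mice carrying MC38, a colon carcinoma line of that strain, and the control group from normal C57BL/6J mice, both aged 6 to 8 weeks. No engineered allele is named for either group, and each library was built from 1500 sorted cells with 12 cycles of PCR. The sources used here give neither the tumour's site and age nor the surface markers of the sort. They do not say whether each library is a different mouse, so p-values measure the spread between libraries, which may be technical.

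The control group has 3 columns, but the third is not independent of the others. Over 9652 genes its count was 0.353 times the sum of the first 2 control columns, with 95% of genes between 0.341 and 0.371. The comparison therefore set MC38 libraries 1 to 4 against control libraries 1 and 2. Total counts ran from 13368238 to 17657037 in the MC38 libraries and were 12131546 and 12306066 in the control libraries. All 20 genes of a stem and progenitor marker list had counts in every library. The list holds Cd48 and Flt3 and is not restricted to HSC genes, so it does not show how pure the sort was. The summed share of these genes was 0.204% to 0.240% of counts in MC38 and 0.215% to 0.227% in control, with no marker called. Nearest to a call were Ly6a (log2 fold change, MC38 over control, 0.65, edgeR adjusted p = 0.052) and Gata2 (-0.50, edgeR adjusted p = 0.073). Other marker sums differed between the groups. Neutrophil granule genes took 5.79% to 6.42% of counts in MC38 and 2.95% to 2.97% in control, and 11 of 14 rose. Lymphoid genes took 0.502% to 0.597% in MC38 and 0.274% to 0.327% in control, with 2 of 10 raised. These 2, the immunoglobulin genes Ighm and Igkc, made up most of the lymphoid sum in every library. Immediate early genes, which respond to handling and stimulation, took 2.71% to 2.77% in MC38 and 3.31% to 3.38% in control, and 6 of 22 fell. Heat shock genes took 0.516% to 0.583% in MC38 and 0.772% to 0.777% in control, and 3 of 11 fell. Macrophage and dendritic genes (0.0670% to 0.0765% in MC38, 0.0527% to 0.0677% in control, 2 of 10 raised) and erythroid and megakaryocyte genes (0.0360% to 0.0371% in MC38, 0.0374% to 0.0494% in control, 0 of 10 called) made up little of the libraries. No marker of any list was at 0 in all 6 libraries. The part of these genes in the results below was not tested.

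None of the 10 members passed an adjusted p of 0.05 in edgeR's quasi-likelihood test, either higher or lower in MC38. Over all tested genes 148 (1.04%) were called higher and 81 (0.569%) lower. At an unadjusted p under 0.05, 5 of the 10 members differed, 3 higher and 2 lower, where 17.5% of all tested genes did. DESeq2 called 1 member (Pmaip1, higher), and limma-voom called none. By value, 3 members (Bcl2l11, Pmaip1 and Bid) lay above both control libraries in every MC38 library, which 14.0% of all tested genes did, and 2 (Bax and Bbc3) lay below both in every MC38 library, which 15.0% of all tested genes did. All 5 of these are pro-death genes, and the 4 pro-survival genes overlapped between the groups. The median log2 fold change, MC38 over control, was 0.25 over the 10 members, 0.15 over the pro-survival genes and 0.28 over the pro-death genes, against 0.01 over all tested genes. Without control library 1 the members' median was -0.069. In bulk samples fewer cells of a type and less RNA per cell cannot be told apart.

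**Figure D1:**
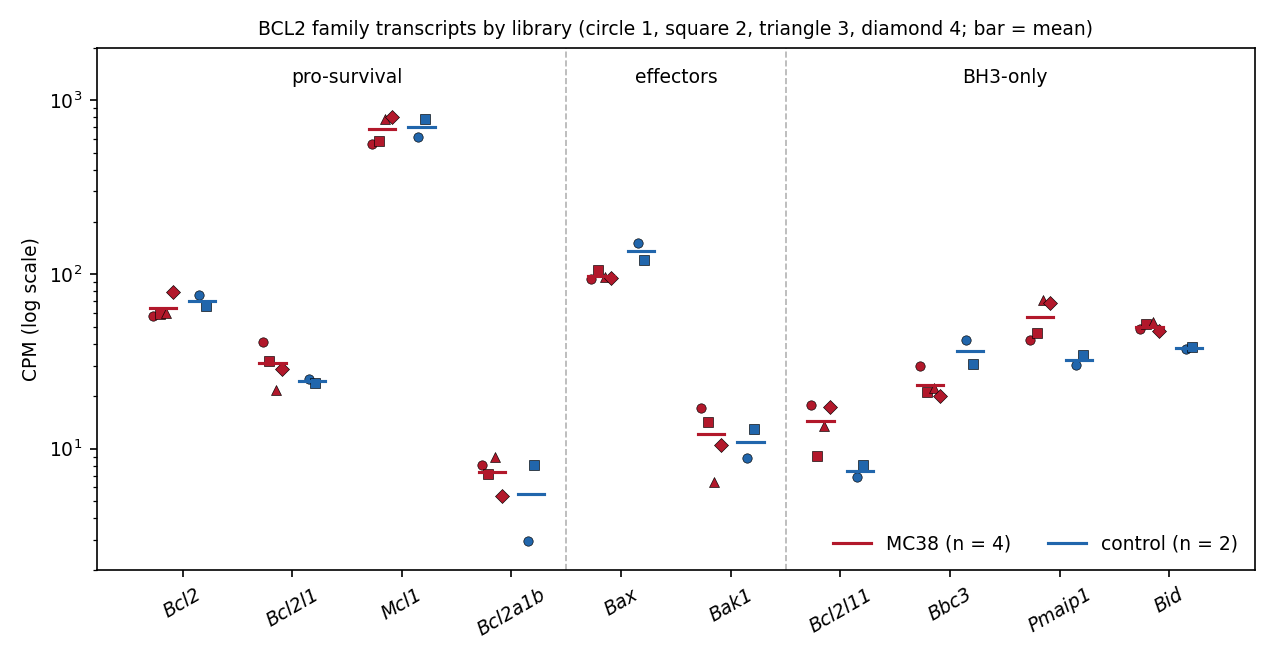
Normalised counts (CPM, log axis) of the 10 members in each of the 4 MC38 and 2 control libraries, ordered by role, with bars at group means. Bcl2l11, Pmaip1 and Bid lie above both controls in every MC38 library and Bax and Bbc3 below both, while the 4 pro-survival genes and Bak1 overlap between the groups.

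Among the pro-survival genes, Mcl1, whose short-lived protein holds BAK and BH3-only proteins, gave the highest level per exon length of the 10 members (ENSMUSG00000038612, chromosome 3: 95658788-95663176, GRCm38, as are all gene positions here). Mcl1 was at 562, 579, 777 and 797 CPM in MC38 libraries 1 to 4, against 613 and 784 CPM in control libraries 1 and 2. CPM is the count per 1000000 counts of a library's normalised size. The MC38 libraries lay on both sides of the controls, with 2 of them below the lower control, 1 between and 1 above the higher. Mean Mcl1 was 679 ± 125 CPM in MC38 (SD, n = 4) and 698 ± 121 CPM in control (SD, n = 2), a log2 fold change of -0.041 with a standard error (SE) of 0.18 and an edgeR adjusted p of 0.934. The 95% interval of the fold ran from 0.739 to 1.28.

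Bcl2, the founding pro-survival gene (ENSMUSG00000057329, chromosome 1: 106538178-106714274), had 57.5, 59.2, 59.9 and 79.7 CPM in MC38, against 75.7 and 66.0 CPM in control. Libraries 1 to 3 of MC38 lay below both controls and library 4 above both. The log2 fold change of Bcl2 was -0.14 (SE 0.18, edgeR adjusted p = 0.732). Bcl2l1, which encodes the long BCL-XL and the short pro-death BCL-XS by splicing that gene counts cannot separate, lies on chromosome 2 (152780668-152831728, ENSMUSG00000007659). Its level was 41.0, 31.9, 21.6 and 28.8 CPM in MC38, against 24.95 and 23.8 CPM in control, so 3 MC38 libraries lay above both controls and library 3 lay below both. The log2 fold change of Bcl2l1 was 0.34 (SE 0.27, edgeR adjusted p = 0.562).

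Bcl2a1b encodes a copy of A1, a pro-survival protein known from neutrophils and activated lymphocytes (ENSMUSG00000089929, chromosome 9: 89199209-89207827). It was at 8.00, 7.18, 8.90 and 5.33 CPM in MC38, against 2.94 and 8.09 CPM in control. The lower control value came from 35 reads and the higher from 98, and the MC38 values lay between the controls except for library 3. The log2 fold change was 0.42 (SE 0.49, 95% interval -0.67 to 1.5, edgeR adjusted p = 0.717). Mouse A1 genes are near-identical copies, so reads may be split or lost between them and the Bcl2a1b level is uncertain. Of 4 copies looked for by symbol, 2 had a row, Bcl2a1b and Bcl2a1c. Bcl2a1c had 0 counts in all 6 libraries, so the sum of these 2 equals Bcl2a1b and is not the total of all A1 copies. No row matched Bcl2a1a or Bcl2a1d, which are not analysed here. The summed share of neutrophil granule genes was 5.79% to 6.42% in MC38 and 2.95% to 2.97% in control, and its part in the Bcl2a1b values was not tested.

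Of the effectors, Bax (ENSMUSG00000003873, chromosome 7: 45461697-45466898) had 94.6, 106, 96.2 and 94.9 CPM in MC38, against 150.6 and 120.6 CPM in control. All 4 MC38 libraries lay below both controls. Mean Bax was 97.9 ± 5.42 CPM in MC38 (SD, n = 4) and 135.6 ± 21.2 CPM in control (SD, n = 2). The fold of MC38 over control was 0.722, a log2 fold change of -0.47 (SE 0.14, 95% interval -0.77 to -0.17), and the edgeR adjusted p of 0.117 did not pass. Bak1, the second effector (ENSMUSG00000057789, chromosome 17: 27019810-27029009), had 17.1, 14.3, 6.46 and 10.4 CPM in MC38, against 8.82 and 12.9 CPM in control. Bak1 values were the most scattered of the 10 among MC38 libraries, with a coefficient of variation of 38.4% against 5.53% for Bax. Its log2 fold change was 0.15 (SE 0.42, edgeR adjusted p = 0.895). Bak1 shares 437 of its 2407 exon bases with Ggnbp1 on the opposite strand, and the strand setting of the counting is not given in the sources used here, so reads of the pair cannot be told apart there. Ggnbp1, looked at for this overlap and not by the naming rule, had a log2 fold change of 0.11 (edgeR adjusted p = 0.914).

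The BH3-only genes had fold changes on both sides of 1. Pmaip1, which encodes NOXA, a BH3-only protein that binds MCL1 and A1, was at 42.0, 45.9, 71.0 and 69.0 CPM in MC38, against 30.3 and 34.4 CPM in control (ENSMUSG00000024521, chromosome 18: 66458533-66465565). Every MC38 library lay above both controls, and MC38 libraries 3 and 4 lay well above 1 and 2. Mean Pmaip1 was 57.0 ± 15.2 CPM in MC38 (SD, n = 4) and 32.3 ± 2.95 CPM in control (SD, n = 2). The fold was 1.76, a log2 fold change of 0.82 (SE 0.26, 95% interval 0.25 to 1.39), and the edgeR adjusted p was 0.145, although DESeq2 gave 0.0350. With the replicate number as a block the log2 fold change was 0.44, and without MC38 library 1 it was 0.94. Over 12 alternatives the adjusted p of Pmaip1 ran from 0.0344 to 0.501.

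Bcl2l11 encodes BIM, a BH3-only protein that binds all pro-survival members and is known for the death of lymphocytes and of cells deprived of growth factors (ENSMUSG00000027381, chromosome 2: 128126038-128162547). It had 17.8, 9.03, 13.5 and 17.2 CPM in MC38, against 6.89 and 8.09 CPM in control. The control values came from 82 and 98 reads. All MC38 libraries lay above both controls, with library 2 close to the higher of them. The fold was 1.92 (95% interval 1.09 to 3.39), a log2 fold change of 0.94 (SE 0.37), and the edgeR adjusted p was 0.230. Bid encodes a BH3-only protein that caspase-8 cleaves into its active form, linking death receptors to mitochondria (ENSMUSG00000004446, chromosome 6: 120891930-120916853). Bid was at 48.3, 52.1, 53.1 and 47.3 CPM in MC38, against 37.3 and 38.2 CPM in control. Its groups were tight and did not overlap, the fold was 1.33, and the log2 fold change of 0.41 (SE 0.16, 95% interval 0.05 to 0.77) had an edgeR adjusted p of 0.230. Bid shares 628 of its 3550 exon bases with Bcl2l13 on the opposite strand, with the same limit on telling their reads apart.

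Bbc3, which encodes PUMA, a BH3-only protein known as a p53 target, had lower values in MC38 (ENSMUSG00000002083, chromosome 7: 16308393-16318205). It had 29.7, 21.3, 22.2 and 20.0 CPM in MC38, against 42.0 and 30.8 CPM in control. Every MC38 library lay below both controls, though MC38 library 1 was close to control library 2. Mean Bbc3 was 23.3 ± 4.35 CPM in MC38 (SD, n = 4) and 36.4 ± 7.93 CPM in control (SD, n = 2). The fold was 0.640, a log2 fold change of -0.65 (SE 0.24, 95% interval -1.18 to -0.11), with an edgeR adjusted p of 0.205. An exact two-sided permutation test of each member over its 6 libraries can reach no p below 0.0667 with 4 against 2. Bax, Bbc3 and Bid were at that smallest p, and Bcl2l11 and Pmaip1 were at 0.133, before any adjustment over the 10 tests.

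**Figure D2:**
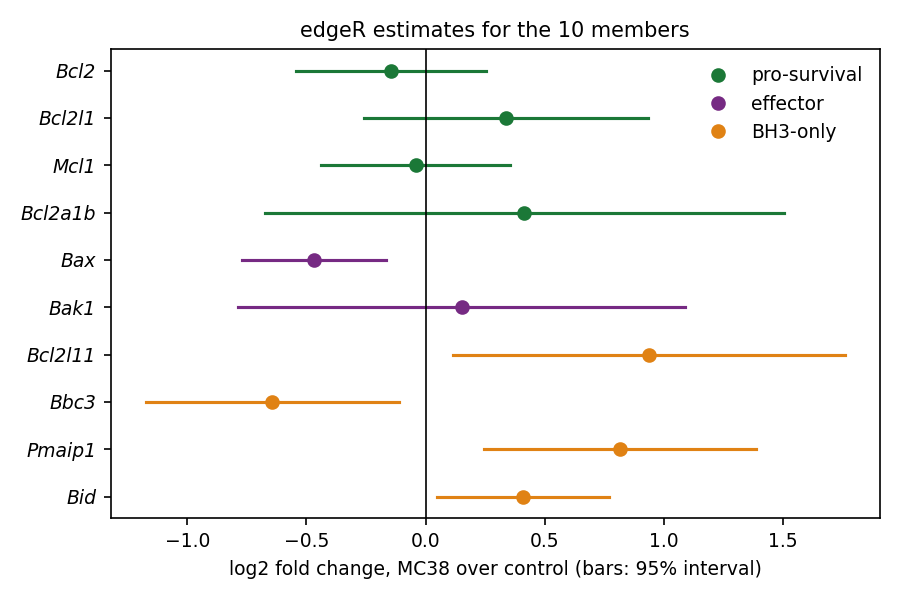
edgeR log2 fold changes, MC38 over control, of the 10 members with 95% intervals, coloured by role. The intervals of Bax (-0.77 to -0.17) and Bbc3 (-1.18 to -0.11) lie below 0 and those of Bcl2l11, Pmaip1 (0.25 to 1.39) and Bid (0.05 to 0.77) above 0 before adjustment, and the 4 pro-survival intervals span 0.

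To show what stands in front of the genes whose groups did not overlap, the 250 bases before the start are given for Bax, Bbc3 and Bcl2l11, from RefSeq on GRCm38.p6, 5′ to 3′ on the gene's own strand. They were picked because Bax holds a match to the p53 half-site, and Bbc3 and Bcl2l11 hold the FOXO core TGTTTAC, and the capitals mark those matches. The windows are chr7:45466899-45467148 on the minus strand for Bax, chr7:16310011-16310260 on the plus strand for Bbc3 and chr2:128125788-128126037 on the plus strand for Bcl2l11. The Bbc3 start is inside the gene as GENCODE draws it.
Bax: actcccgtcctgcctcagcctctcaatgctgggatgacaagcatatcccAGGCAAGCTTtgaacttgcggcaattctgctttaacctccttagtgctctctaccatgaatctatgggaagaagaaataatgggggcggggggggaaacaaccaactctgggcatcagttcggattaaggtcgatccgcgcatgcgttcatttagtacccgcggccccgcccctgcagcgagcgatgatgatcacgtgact
Bbc3: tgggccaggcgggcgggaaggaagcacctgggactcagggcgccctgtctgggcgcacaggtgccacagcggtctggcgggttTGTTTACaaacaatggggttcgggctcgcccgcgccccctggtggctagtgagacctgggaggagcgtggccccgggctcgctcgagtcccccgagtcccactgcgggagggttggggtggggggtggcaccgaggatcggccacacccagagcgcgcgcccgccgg
Bcl2l11: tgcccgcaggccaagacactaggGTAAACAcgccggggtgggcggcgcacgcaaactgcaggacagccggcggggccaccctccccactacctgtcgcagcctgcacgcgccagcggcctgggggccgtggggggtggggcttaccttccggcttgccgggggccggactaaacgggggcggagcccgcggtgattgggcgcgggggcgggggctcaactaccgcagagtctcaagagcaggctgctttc
The p53 half-site in Bax begins 201 bases before the start, the FOXO core in Bbc3 167 bases before, and that in Bcl2l11, which reads on the reverse strand, 227 bases before. Of the 10 members 9 matched RefSeq, giving 14 windows of 300 bases (250 before and 50 after the start), and no window of Pmaip1 was searched. Searched on both strands, the p53 half-site was in 8.36% of the 32851 windows of all genes and, of the 9 members searched, in Bax alone. The FOXO core was in 3.65% of windows, and among members in 1 window each of Bbc3 and Bcl2l11. The AP-1 motif TGANTCA was in 7.81% of windows and among members in Bcl2a1b. The NF-kB motif was in 4.5% of windows and among members in Bbc3 and Bcl2l1. The GAS motif TTCNNNGAA (8.30% of windows) and the CRE motif TGACGTCA (1.79%) were in none of the 14 windows. The part of FOXO factors in the levels of Bbc3 and Bcl2l11 was not tested. A match is letters in a window and says nothing of binding.

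Genes of the factors known to bind these motifs were examined after their values were seen. Trp53, which encodes p53, was at 171 ± 12.2 CPM in MC38 and 176 ± 21.7 CPM in control (log2 fold change -0.039, edgeR adjusted p = 0.911). Foxo3 was at 93.1 ± 14.9 CPM in MC38 and 112.5 ± 11.0 CPM in control (log2 fold change -0.27, edgeR adjusted p = 0.440), and Foxo1 at 35.6 ± 13.1 CPM in MC38 and 23.8 ± 8.24 CPM in control (log2 fold change 0.58, edgeR adjusted p = 0.441). None of these 3 passed edgeR's test. Of 7 AP-1 genes edgeR called 1 higher and 2 lower, beside 1.04% and 0.569% of all tested genes. Fosb, which is also in the immediate early list above, fell to 550 ± 4.86 CPM in MC38, against 1283 ± 69.4 CPM in control (log2 fold change -1.22, edgeR adjusted p = 0.000256). Jund was at 933.7 ± 143.5 CPM in MC38 and 1576 ± 182 CPM in control (edgeR adjusted p = 0.0403), and Fosl2 at 173.5 ± 21.9 CPM in MC38 and 101.7 ± 9.74 CPM in control (edgeR adjusted p = 0.0405). The Jund and Fosl2 calls were lost without MC38 library 2, MC38 library 4 or either control library, with adjusted p of up to 0.187 for Jund and 0.290 for Fosl2, and that of Fosl2 also under limma-voom (0.0594). Of 5 NF-kB genes edgeR called none, and Rela, below both controls in every MC38 library, was at 95.7 ± 14.6 CPM in MC38 and 122.5 ± 1.36 CPM in control (log2 fold change -0.36, edgeR adjusted p = 0.286).

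Levels of different genes are compared per kilobase of exon (CPM per kb). In MC38 Mcl1 stood first at 199 ± 36.7 CPM per kb, followed by Bax at 62.1 ± 3.44, Pmaip1 at 20.9 ± 5.55, Bid at 14.1 ± 0.799 and Bbc3 at 11.0 ± 2.05 (SD, n = 4). Below them, in CPM per kb, came Bcl2a1b at 9.0 ± 1.86, Bcl2 at 7.0 ± 1.14, Bcl2l1 at 6.72 ± 1.76, Bak1 at 5.01 ± 1.92 and Bcl2l11 at 1.79 ± 0.504. Neighbours in the MC38 order were separated in every library only from Mcl1 to Bid and between Bak1 and Bcl2l11. In control the order began with Mcl1 at 204 ± 35.4 and Bax at 86.0 ± 13.4 CPM per kb, and then had Bbc3 at 17.1 ± 3.74, ahead of Pmaip1 at 11.8 ± 1.08 and Bid at 10.6 ± 0.182 (SD, n = 2). Bbc3 thus stood behind Pmaip1 and Bid in MC38 and ahead of both in control. With Bcl2 next in the control order at 7.74 ± 0.753 CPM per kb, these 6 were separated, and below Bcl2 only Bak1 and Bcl2l11 were.

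Summed per kb, the pro-death side was at 112, 116, 117 and 115 CPM per kb in MC38, against 141 and 121 CPM per kb in control. The MC38 sums were all below both controls and close to each other (115 ± 1.93 in MC38, 131 ± 14.6 in control). This separation depends on dividing by length, which gives most weight to Bax, the shortest of the 6 at 1576 exon bases. Summed as CPM without length, the pro-death side overlapped between the groups. Of the sum per kb, Bax made up 54.1 ± 2.72% in MC38 and 65.5 ± 2.96% in control. Pmaip1 made up 18.1 ± 4.66% in MC38 and 9.13 ± 1.85% in control, and Bid 12.3 ± 0.553% in MC38 and 8.17 ± 1.05% in control. Bbc3 made up 9.56 ± 1.95% in MC38 and 13.0 ± 1.40% in control. The pro-survival sum was 221 ± 35.6 CPM per kb in MC38 and 224 ± 38.9 CPM per kb in control, with overlapping groups, and Mcl1 was 89.5 ± 2.26% of it in MC38 and 91.2 ± 0.042% in control.

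**Figure D3:**
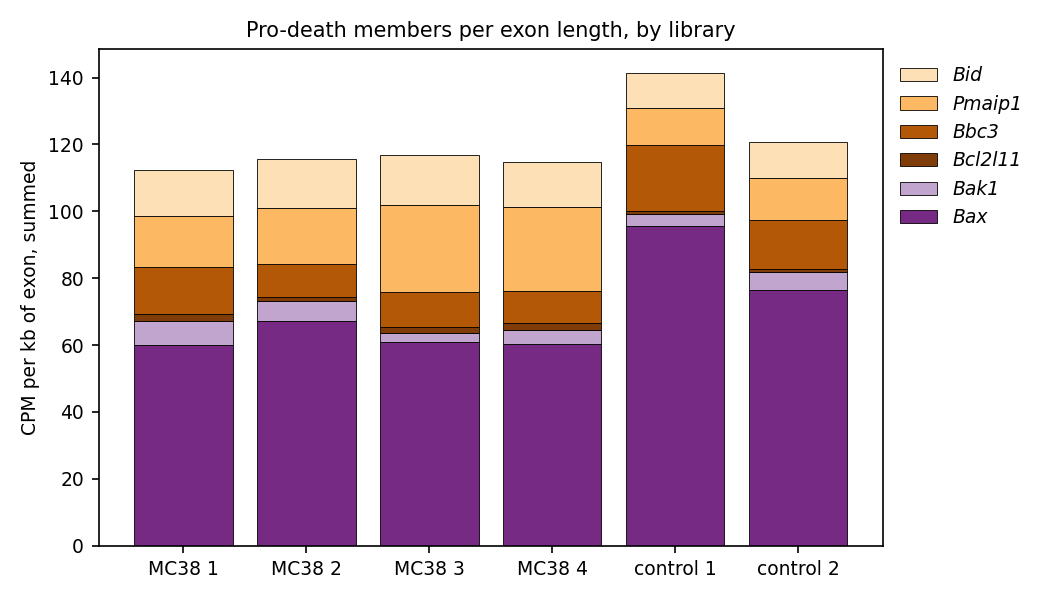
Stacked levels (CPM per kb of exon) of the 6 pro-death members in each MC38 and control library. The MC38 stacks reach 112 to 117 and the control stacks 141 and 121, with less Bax and Bbc3 and more Pmaip1 and Bid in the MC38 stacks. The stack heights separate the groups only when divided by exon length.

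The log2 ratio of the pro-survival to the pro-death sum was 0.76, 0.73, 1.10 and 1.15 in MC38, against 0.48 and 1.06 in control. The groups overlapped, and the mean difference of 0.17 was smaller than the SD within MC38 (0.22) or control (0.41). It rested on single libraries, being -0.13 without control library 1 and 0.46 without control library 2. Without Mcl1, which outweighs the other pro-survival genes, the log2 ratio was -2.17, -2.38, -2.40 and -2.42 in MC38, against -3.03 and -2.44 in control. That difference was 0.39, with MC38 library 4 next to control library 2.

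Some pairs whose proteins bind each other were then set against each other, chosen after their values were seen and given as descriptions. Pmaip1 per kb was 9.34%, 9.91%, 11.4% and 10.8% of Mcl1 per kb in MC38, against 6.17% and 5.49% in control. The MC38 libraries were close to each other here, although Pmaip1 and Mcl1 each were higher in MC38 libraries 3 and 4 than in 1 and 2. Bcl2l11 was 35.2%, 17.4%, 25.6% and 24.7% of Bcl2 per kb in MC38, against 10.4% and 14.0% in control, again with no overlap. Bax was 956%, 1040%, 932% and 692% of Bcl2 per kb in MC38 (905 ± 149%), against 1156% and 1062% in control (1109 ± 65.9%). All 4 MC38 libraries lay below both controls, with MC38 library 2 close to control library 2. The lowest value was that of MC38 library 4, where Bcl2 was highest. Bbc3 was 5.76 ± 1.98% of Mcl1 per kb in MC38 and 8.68 ± 3.33% in control, with overlapping groups.

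**Figure D4:**
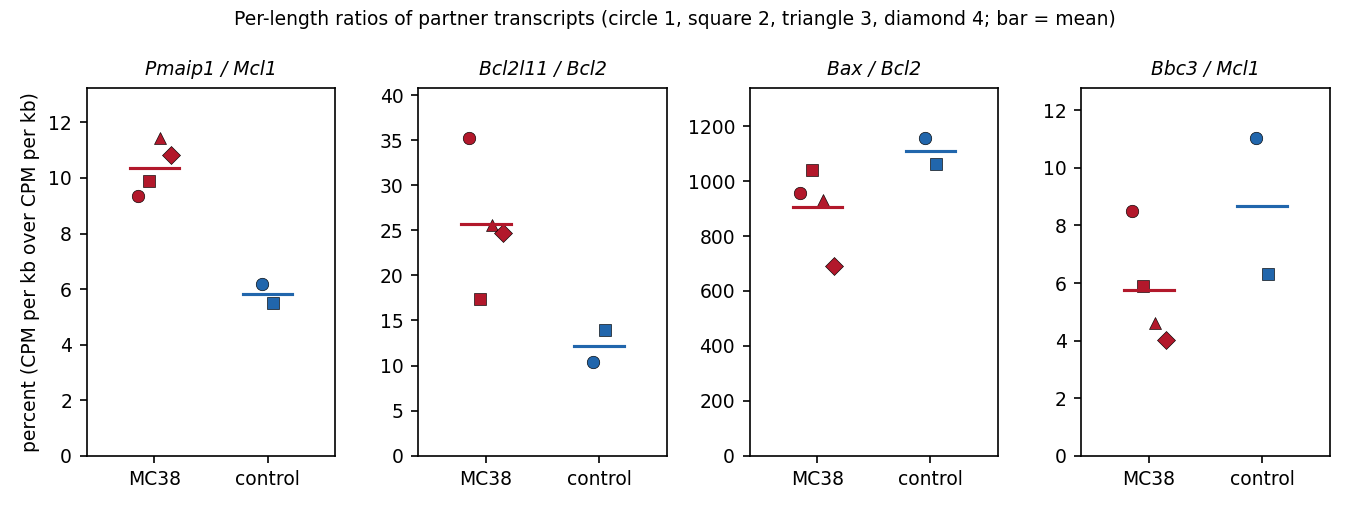
Ratio of 4 partner pairs (percent, CPM per kb over CPM per kb) in each of 4 MC38 and 2 control libraries, with bars at group means. Pmaip1 over Mcl1 and Bcl2l11 over Bcl2 are above both controls in every MC38 library, Bax over Bcl2 is below both, and Bbc3 over Mcl1 overlaps.

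Around the 10 members, 7 lists of death and survival genes held 102 genes, of which 90 were tested. Birc5, which encodes survivin, an inhibitor of apoptosis protein that also works in cell division, was the 1 gene called lower by edgeR's test and by limma-voom, and neither called any higher. At an unadjusted edgeR p under 0.05, 8 genes were higher and 11 lower. Of all tested genes 17.5% differed at that p in either direction, a share that also stands beside the list counts below. DESeq2 called 5 genes higher (Casp8, Myc, Mdm2, Bcl2l15 and Naip6) and 4 lower (Birc5, Vdac1, Cdkn1a and Ddit3). Birc5 was at 56.1, 59.8, 61.5 and 59.5 CPM in MC38, against 103 and 100.3 CPM in control, with no overlap. Its log2 fold change was -0.78 (SE 0.13, edgeR adjusted p = 0.0205). The call was lost without MC38 library 2 (adjusted p = 0.0872), MC38 library 4 (0.0917), control library 1 (0.167) or control library 2 (0.103), and the adjusted p ran from 5.38e-05 to 0.167 over 12 alternatives. Over the 90 genes the median log2 fold change was 0.02, 10 lay above both controls and 20 below both in every MC38 library, beside the 14.0% and 15.0% of all tested genes.

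On the path from death receptors, which meets the BCL2 family at Bid, edgeR called none of 10 genes, with 2 higher at an unadjusted p under 0.05. Casp8, the caspase that cleaves BID, had 81.6, 100.6, 152.5 and 114.5 CPM in MC38, against 58.4 and 47.5 CPM in control. Its groups did not overlap, and its log2 fold change was 1.09 (SE 0.24) with an edgeR adjusted p of 0.0588. Casp8 passed under DESeq2 (adjusted p = 0.000539), without the filter on low counts (0.00664), with all 7 columns (0.0117), with the replicate number as a replicate block (0.0287) and when MC38 library 1 (0.00867) or 3 (0.0276) was left out. Over 12 alternatives its adjusted p ran from 0.000539 to 0.256. Cflar, whose product FLIP blocks caspase-8, was at 198 ± 14.7 CPM in MC38 and 162 ± 9.51 CPM in control (log2 fold change 0.29, edgeR adjusted p = 0.255).

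Of 14 apoptosome and mitochondrial death factors, a list that includes channels of the outer membrane, edgeR called none. At an unadjusted edgeR p under 0.05, 4 were lower, and DESeq2 called Vdac1 lower. The median log2 fold change of the 14 was -0.22, with 11 below 0 and 3 above. Of all 14226 tested genes, 6980 were below 0 and 7246 above. Vdac1 and Vdac3, channels of the outer membrane, were at 100.5 ± 12.8 and 128.5 ± 8.19 CPM in MC38, against 148 ± 27.5 and 164 ± 2.30 CPM in control (edgeR adjusted p = 0.117 for Vdac1 and 0.165 for Vdac3). Vdac1 had an adjusted p of 0.0431 under DESeq2, 0.0163 with a replicate block and 0.0268 with all 7 columns, and Vdac3 of 0.0359 with all 7 columns. Over 12 alternatives the adjusted p ran from 0.0163 to 0.406 for Vdac1 and from 0.0359 to 0.421 for Vdac3. Diablo, which encodes SMAC and was picked after its values were seen, was at 51.4 ± 8.55 CPM in MC38 and 71.2 ± 1.36 CPM in control (edgeR adjusted p = 0.228).

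Among p53 and its targets edgeR called none of 21 genes, with 1 higher and 3 lower at an unadjusted p under 0.05, and the median was -0.003 (log2). Cdkn1a, the cell cycle inhibitor p21, was at 180 ± 5.13 CPM in MC38 and 235 ± 0.237 CPM in control (edgeR adjusted p = 0.102). Mdm2, the ligase for p53, was at 83.1 ± 15.2 CPM in MC38 and 51.5 ± 9.83 CPM in control (edgeR adjusted p = 0.127). DESeq2 called both, with adjusted p of 0.0293 for Cdkn1a and 0.0301 for Mdm2. Over 12 alternatives the adjusted p ran from 0.0136 to 0.349 for Cdkn1a and from 0.0301 to 0.365 for Mdm2. These values, like those of the p53 targets Bbc3 and Pmaip1, lie on opposite sides of control. Of 11 tested other BCL2 family genes edgeR called none, with 1 higher and 1 lower at an unadjusted p under 0.05. Bmf, a BH3-only gene, was at 1.42 ± 0.71 CPM in MC38 and 5.44 ± 4.07 CPM in control (edgeR adjusted p = 0.217). Bcl2l15 had 16, 11, 11 and 28 counts in MC38 and 0 in both controls, at least 8.66-fold higher against a floor of 3 counts over the control group (edgeR adjusted p = 0.137). DESeq2 called Bcl2l15 higher (adjusted p = 0.0265), and its adjusted p ran from 0.0265 to 0.385 over 12 alternatives.

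Of the 10 tested factors that set MCL1 protein turnover neither edgeR nor DESeq2 called any, with 2 higher and 1 lower at an unadjusted edgeR p under 0.05 (median 0.19). Both higher genes were at 0 in both controls and in at least 1 MC38 library, and the median includes their unbounded folds. Cdc20 was at 53.7 ± 11.9 CPM in MC38 and 76.8 ± 9.79 CPM in control (edgeR adjusted p = 0.248). Usp13, a deubiquitinase of MCL1, was at 2.22, 0.752, 0 and 0.592 CPM in MC38 and 0 in both controls, at least 6.83-fold higher against the same floor (edgeR adjusted p = 0.276). Of its 52 MC38 counts 33 were in MC38 library 1, without which the bound was 3.30-fold, and MC38 library 3 was at 0 like the controls. Of 18 tested upstream factors, transcription factors and the Pim kinases, edgeR called none, with 1 higher and 1 lower at an unadjusted p under 0.05 (median 0.13). Myc, which sensitises cells to death, was at 405 ± 13.8 CPM in MC38 and 298.5 ± 13.7 CPM in control (edgeR adjusted p = 0.0726). Ddit3, the stress factor CHOP, was at 112 ± 8.72 CPM in MC38 and 154 ± 17.8 CPM in control (edgeR adjusted p = 0.114). DESeq2 called both, with adjusted p of 0.00297 for Myc and 0.0481 for Ddit3. Over 12 alternatives the adjusted p ran from 0.00297 to 0.276 for Myc and from 0.0219 to 0.497 for Ddit3. Of 8 tested inhibitor of apoptosis genes edgeR called Birc5 alone (median 0.05), and Naip6, chosen after its values were seen, was at 14.3 ± 3.87 CPM in MC38 and 5.03 ± 1.29 CPM in control (edgeR adjusted p = 0.0963, DESeq2 0.00859, range over 12 alternatives 0.00859 to 0.397).

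**Figure D5:**
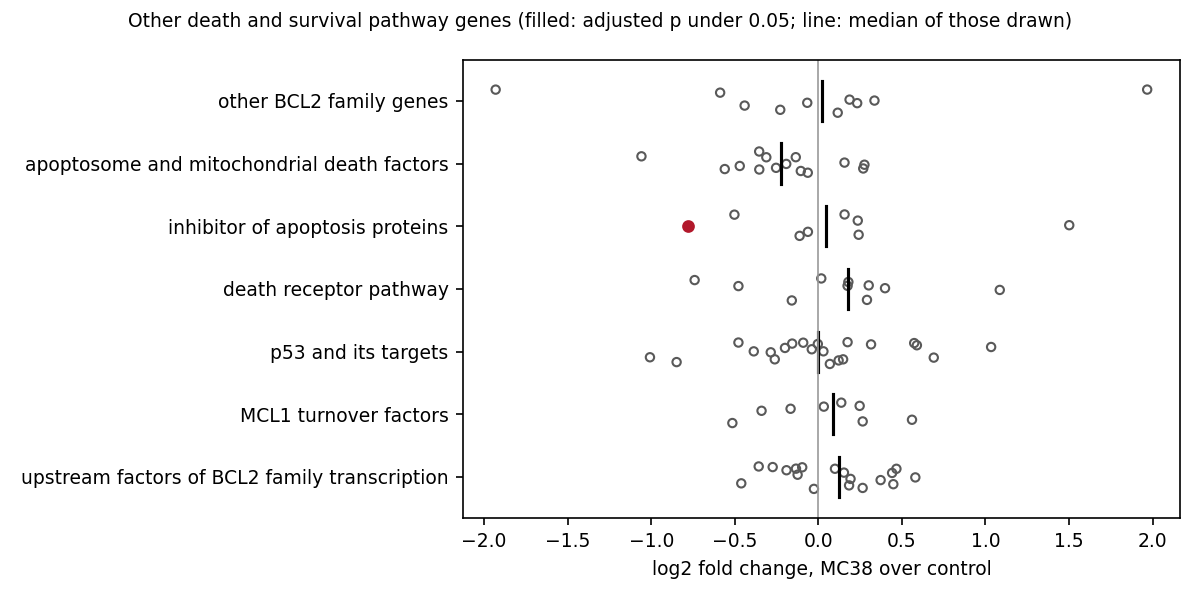
edgeR log2 fold changes, MC38 over control, of tested genes in 7 lists around the members, each circle a gene and each line the list's median, leaving out 3 genes at 0 in both controls. Birc5 (-0.78) is the 1 filled point, and 11 of 14 apoptosome and mitochondrial death factors lie below 0, beside 6980 of all 14226 tested genes.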

How the data were processed

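Reads were trimmed with Trim Galore 0.5.0, aligned to mm10 with STAR 2.6.1 and counted with HTSeq 0.10.0, per the submitters' processing notes. The authors deposited 1 table of gene counts for all libraries. The sources used here name no annotation release, strand setting or count filter. Symbols were taken from a GENCODE annotation of GRCm38, which named 27728 of 28786 genes.

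The 4 MC38 libraries were compared with control libraries 1 and 2 in edgeR 4.0.16 (R 4.3.3), with edgeR's expression filter, TMM normalisation, quasi-likelihood F tests and Benjamini-Hochberg adjustment over all 14226 tested genes. The common biological coefficient of variation was 0.366. Alternatives were DESeq2 1.42.0, limma-voom 3.58.1, RLE scaling, no filter, all 7 columns, a replicate block and leaving out each library in turn. A further alternative summed the 2 Bcl2a1 copies that had a row. It could change no value because Bcl2a1c had 0 counts. The third control column, which follows from the others, was used only with all 7 columns. The scripts were tested on simulated data.

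The members and gene lists were chosen with earlier results of these data known. The naming rule took all members and the Bcl2a1 copies that had a row. In each list it took the called genes (up to 4 of smallest p) or, where none was called, the 2 of smallest p. Marker lists are given as counts and sums with few of their genes named, and names outside the rule are marked in the text. Bcl2a1a and Bcl2a1d are not analysed here. Per-length levels divide CPM by the union of a gene's annotated exons, whose used isoforms are unknown. Promoter windows came from RefSeq.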

Additional observations from a re-analysis of the deposited data

Results flagged for a closer look

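Of 33 genes examined (the 10 members, the pathway genes of the naming rule and 10 genes named outside it), 2 had 1 library far from the other 3 MC38 libraries, measured by the gap to its nearest neighbour over the whole range of the group. For Bcl2 this was MC38 library 4, at 79.7 CPM beside 57.5 to 59.9 CPM, with a gap of 0.891 of the range. For Bax it was MC38 library 2, at 106 CPM beside 94.6 to 96.2 CPM, with a gap of 0.865 of the range. Both exceed Dixon's critical value at 95% for 4 libraries, and chance flags about 5% of groups. All 4 Bax values stayed below both controls, and the Bcl2 value of library 4 lay above both.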

How the results depend on the processing

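Bcl2, Bbc3 and Bax stayed lower and Bcl2l1, Bcl2l11, Pmaip1 and Bid higher in MC38 in 12 alternatives. The smallest log2 fold change of Pmaip1 was 0.44, with a replicate block. Summing the 2 Bcl2a1 copies that had a row could change nothing because Bcl2a1c was at 0. With a library left out, Mcl1 ran from -0.21 to 0.15 (log2), Bcl2a1b from -0.14 to 1.32 and Bak1 from -0.095 to 0.45. DESeq2 called 1 member higher (Pmaip1), and all 7 columns called 1 higher (Pmaip1, adjusted p = 0.0344, range over alternatives 0.0344 to 0.501) and 1 lower (Bax, adjusted p = 0.0213, range over alternatives 0.0213 to 0.539). All 7 columns treat a derived column as a library. The members' median log2 fold change ran from -0.069 without control library 1 to 0.37 without control library 2. The pro-survival to pro-death difference ran from -0.13 to 0.46 with a library left out, was 0.39 without Mcl1 and -0.01 without dividing by length. Pathway genes called higher numbered 5 under DESeq2, 1 without the filter, 5 with all 7 columns and 0 to 1 with a library left out, and those called lower 4 under DESeq2, 5 with all 7 columns and 0 to 1 with a library left out. Over all genes the calls were 634 higher and 394 lower under DESeq2, 90 higher and 71 lower under limma-voom, 302 and 202 without the filter, 791 and 663 with all 7 columns, and 44 to 259 higher and 16 to 183 lower with a library left out, fewest without control library 1 and most without MC38 library 1. Whether the replicate number pairs libraries could not be settled. Deviations of same-numbered libraries from their group means correlated at 0.07 and -0.05. With 2 control libraries the deviations of 1 mirror those of the other, and MC38 libraries 3 and 4 have no same-numbered control in the comparison. With the number as a replicate block, which leaves 1 residual degree of freedom, the calls were 269 higher and 190 lower over all genes and 1 higher (Casp8, adjusted p = 0.0287) and 3 lower in the pathway lists, and the members' median was 0.43. The causes of these differences were not tested. Counts under 100 in a library limit the precision of Bcl2a1b (72 in MC38 library 4, 35 and 98 in control) and of Bcl2l11 (82 and 98 in control).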
